A study of Mus musculus with 21 samples.

Results

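Nodal, Lefty1, Lefty2, Tdgf1, Acvr2b, Foxh1, Smad7 and Cer1 carry, assist or restrain signalling by Nodal, and their transcripts were followed in mouse cells of 4 kinds: haploid and diploid embryonic stem (ES) cells, embryonic fibroblasts and round sperm. The 8 genes were taken by name, through every probe set whose platform annotation gives only that gene's symbol. They were 8 of 18193 genes so measured and had 15 of 34945 such probe sets. Expression was measured on 21 Affymetrix arrays, 3 for each of 7 groups. The series set out to compare expression among them. The androgenetic haploid ES (ahES) lines AH129-5, AH129-N1 and AH129-NC1, whose chromosomes come from the father alone, had the 129 Sv background. Their medium was N2B27 with LIF and 2i, and only haploid cells in G0/G1 were kept by sorting. The diploid ES lines CS1-1 and R1 shared this background and medium, and the labels name no sorting of them. Mouse embryonic fibroblasts (MEF) had the CD1 background and were grown in DMEM with serum. Round sperm, haploid germ cells of the 129 Sv background, were isolated fresh from testis and sorted likewise. Each line stands for itself alone: its 3 arrays were labelled as biological replicates, but the haploid kind rests on 3 lines and the diploid kind on 2.

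Nodal is a secreted ligand of the TGF-beta family that maintains the epiblast of the early embryo and later patterns its axes. It acts through type II receptors such as Acvr2b, type I receptors and an EGF-CFC co-receptor, Tdgf1 (Cripto), which lead to phosphorylation of Smad2 and Smad3. With Smad4 these enter the nucleus and meet Foxh1, a DNA-binding partner. Lefty1, Lefty2 and Smad7 are known as targets of the pathway that restrain it, the Leftys outside the cell and Smad7 at the receptor, and Cer1 is a secreted antagonist of Nodal. In mouse ES cells Nodal, the Leftys and Tdgf1 are known to be expressed, and their activity has been tied to readiness for differentiation.

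Levels are log2(signal + 9.70), where 9.70 signal units is the median over arrays of their 20th percentile. A gene with several probe sets is given by the one whose mean over the 21 arrays was highest. The 40th percentile of an array lay between 5.34 and 5.63 on this scale, and a group whose mean was at or below the mean of its arrays' 40th percentiles is called near background. A difference passed at an adjusted p under 0.05 (limma, Benjamini-Hochberg over all genes tested) and a change of at least 2-fold. Errors of means are standard deviations (SD) over arrays and errors of differences are standard errors (SE). For ahES against diploid ES cells the p-values measure the spread between these arrays and lines. For pairs of lines, and for comparisons with MEF or round sperm, p-values and SE measure only the spread between arrays within a group. In bulk RNA, fewer cells that express a gene and less RNA per cell cannot be told apart.

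The groups carried the markers of their labels, though not these alone. All 6 pluripotency markers, among them Pou5f1, Nanog and Sox2, exceeded the 40th percentile on all 3 arrays of each of the 5 ES lines. All 7 spermatid markers did so in round sperm, and none of them in another group. In round sperm 4 of the 6 pluripotency markers, all but Nanog and Sox2, also did so. Their summed signal there was 861 to 904, against 55846 to 70343 in ES arrays. All 9 measured fibroblast markers did so in MEF, but also in R1 and each ahES line, and 8 of them in CS1-1. Arrays of 1 group correlated at 0.970 to 0.985 over 15412 genes (genes are not independent of each other). In round sperm the Gapdh control was 0.55 ± 0.17 (SD, n = 3) higher at its 3′ than its 5′ end on the log2 scale, against -0.24 in both kinds of ES cell and -0.21 in MEF. Differences from round sperm below carry that difference too, and its part in them was not tested.

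Lefty1 and Lefty2 were the 2 genes of the 8 that were higher in ahES than in diploid ES cells. Lefty1 was 3.36-fold and Lefty2 2.94-fold higher in ahES cells, and for both every ahES array lay above every diploid ES array. Of the 8 genes, 7 were tested here, 2 of them passed as higher and none as lower. Over all 12892 genes tested, 4.37% passed in either direction, 3.01% as higher and 1.37% as lower. The median difference was -0.12 over the 7 genes and -0.03 over all genes tested. Of the other 5 tested genes, Tdgf1 had an adjusted p under 0.05 but fell short of 2-fold, and Nodal, Acvr2b, Foxh1 and Smad7 did not pass. Cer1, by the probe set that stands for it, was near background in all 7 groups and was not tested.

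**Figure D1:**
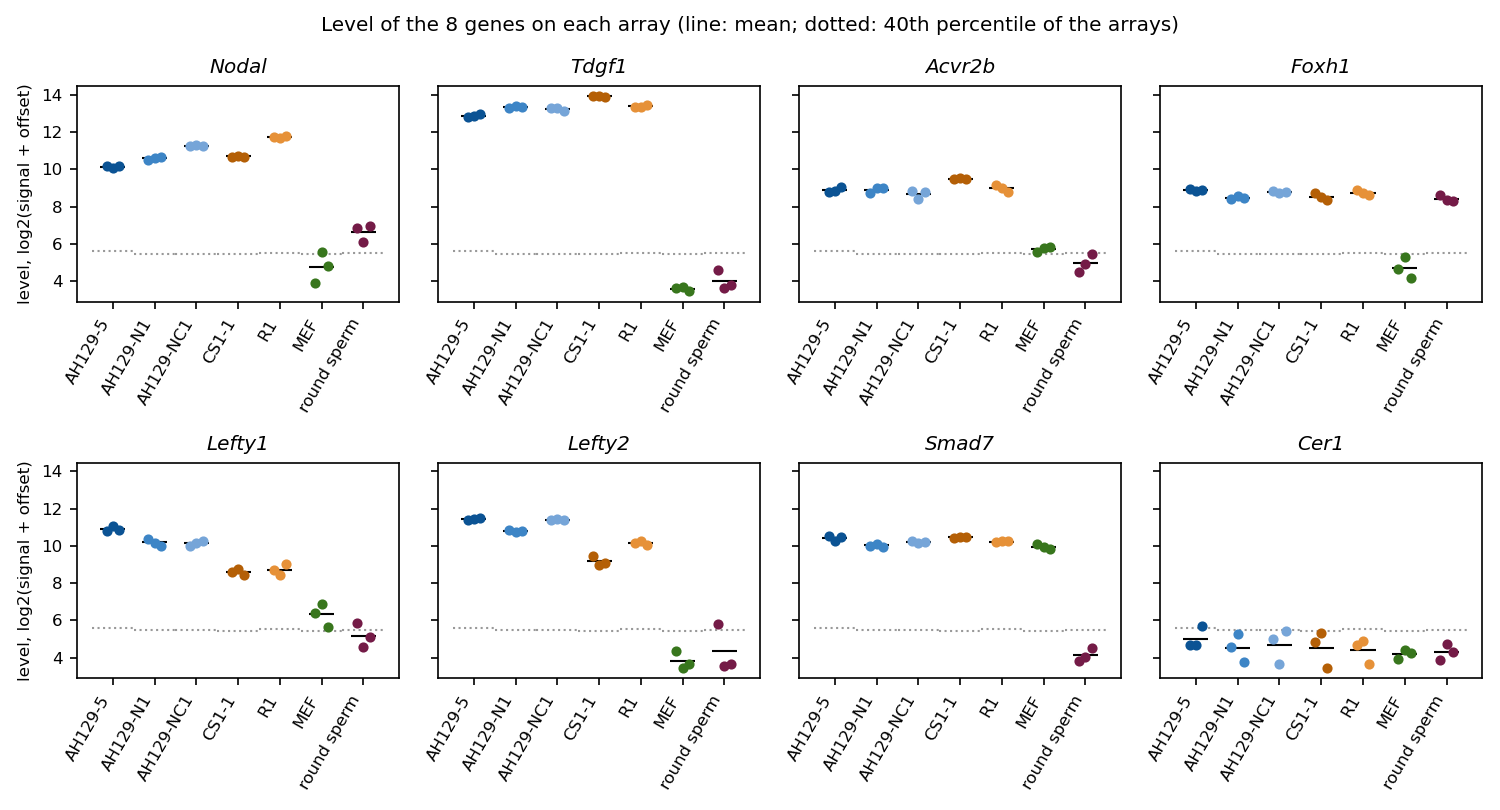
Level of each of the 8 genes on each of the 21 arrays, as log2(signal + 9.70), by group. Points are arrays, black lines group means and dotted lines the mean 40th percentile of the group's arrays. The Lefty1 and Lefty2 points of the 3 ahES lines lie above those of CS1-1 and R1, the Foxh1 points of round sperm overlap those of ES cells, and the means of Cer1 lie below the dotted line in every group.

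Nodal, the ligand, differed more among lines of a kind than between the kinds. Its levels were 10.19, 10.08 and 10.18 in AH129-5, 10.49, 10.62 and 10.66 in AH129-N1, and 11.27, 11.30 and 11.23 in AH129-NC1. They were 10.68, 10.72 and 10.67 in CS1-1 and 11.72, 11.71 and 11.81 in R1. The 3 arrays of a line lay close together, and the lines of the 2 kinds were interleaved, from R1 through AH129-NC1, CS1-1 and AH129-N1 down to AH129-5. Only CS1-1 and AH129-N1, neighbours in that order, did not differ past the adjusted p (0.10 apart, adjusted p = 0.165). The difference between ahES and diploid ES cells was -0.55 ± 0.25 (adjusted p = 0.182), with means of 10.67 ± 0.49 (n = 9) and 11.22 ± 0.58 (n = 6). It depended on which lines were used: it was -1.08 without CS1-1, which passed (adjusted p = 0.0116), and -0.02 without R1. It was -0.85 without AH129-NC1 (adjusted p = 0.0279, short of 2-fold) and -0.29 without AH129-5. The second Nodal probe set ranked the 5 lines in the same order, from 8.04 ± 0.26 in AH129-5 to 9.70 ± 0.15 in R1, and differed by -0.72 ± 0.29 between the kinds (adjusted p over probe sets = 0.125).

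Between single lines, Nodal was 3.02-fold lower in AH129-5 than in R1 (log2 difference -1.59 ± 0.06, adjusted p = 1.62e-14). It was also lower than in R1 in AH129-N1, by 2.23-fold (-1.15 ± 0.06), and in CS1-1, by 2.08-fold (-1.06 ± 0.06, adjusted p = 1.40e-11). R1 thus held the highest level and was set apart by at least 2-fold from 3 of the 4 other lines. The fold against CS1-1 fell short of 2-fold with the mean over both probe sets (-0.96) or with median-centred arrays (-0.99). Within the ahES kind, Nodal was 2.17-fold lower in AH129-5 than in AH129-NC1 (-1.11 ± 0.06). Genes that passed made up 11% of those tested in AH129-5 against R1, 9.54% in AH129-N1 against R1, 9.79% in CS1-1 against R1 and 5.26% in AH129-5 against AH129-NC1.

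The promoters of Nodal and Tdgf1 are shown because these 2 genes passed between some of the lines and are held in the RefSeq promoter table (build GRCm38.p6). Each sequence is the 250 bases before the RefSeq start, read 5′ to 3′ on the gene's strand, at chr10:61417722-61417971 (plus strand) for Nodal and chr9:110946159-110946408 (minus strand) for Tdgf1. Capitals mark the Smad word CAGAC, searched on both strands.
Nodal: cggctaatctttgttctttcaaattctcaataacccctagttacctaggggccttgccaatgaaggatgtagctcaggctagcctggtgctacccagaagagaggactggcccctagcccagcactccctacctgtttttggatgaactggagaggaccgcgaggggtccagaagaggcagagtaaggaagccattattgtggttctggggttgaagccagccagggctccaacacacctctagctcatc
Tdgf1: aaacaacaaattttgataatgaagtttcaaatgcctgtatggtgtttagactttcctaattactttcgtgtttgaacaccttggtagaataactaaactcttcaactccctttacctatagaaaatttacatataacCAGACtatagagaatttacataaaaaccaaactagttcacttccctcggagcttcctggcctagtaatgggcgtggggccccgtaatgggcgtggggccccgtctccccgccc
The Tdgf1 window held CAGAC on its own strand, 113 bases before the start, and the Nodal window did not hold it. The windows of Cer1 and Acvr2b also held it, 213 bases and, on the other strand, 233 bases before the start. Matches are given for these 4 genes alone. Lefty1, Lefty2 and Foxh1 had no entry in the promoter table, and the Smad7 window was left out. Over all 32851 windows of 250 bases, 42.2% held CAGAC. The words AATCCACA, AATACACA, AATCAACA and AATAAACA, forms of the site known for Foxh1, were in 3.93% of windows on either strand and in none of these 4. A match describes letters in a window and no binding was measured.

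Tdgf1, the co-receptor, was at high signal in every ES line and lowest in AH129-5. Its levels were 12.79, 12.85 and 12.98 in AH129-5, 13.29, 13.37 and 13.35 in AH129-N1, and 13.27, 13.29 and 13.11 in AH129-NC1. They were 13.93, 13.95 and 13.91 in CS1-1 and 13.36, 13.34 and 13.47 in R1. CS1-1 stood above all other lines on every array, AH129-5 below all others, and R1, AH129-N1 and AH129-NC1 lay between with neighbours in the order no more than 0.12 apart. AH129-NC1 minus R1 was -0.17 ± 0.06 (adjusted p = 0.0194), under 2-fold. The difference between the kinds was -0.51 ± 0.14 (adjusted p = 0.0190), 1.43-fold lower in ahES cells, and the ranges of the kinds overlapped. At any fold, 11.7% of all genes tested had an adjusted p under 0.05 in this comparison. Without CS1-1 the difference was -0.25 (adjusted p = 0.386), and without AH129-5 it was -0.38 (adjusted p = 0.0795). Among the 10 pairs of lines Tdgf1 passed in AH129-5 against CS1-1, where it was 2.08-fold lower (-1.05 ± 0.06) and 15.5% of genes passed.

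Acvr2b, a type II receptor for Nodal and activin, was likewise highest in CS1-1. Its mean there was 9.50 ± 0.03 (SD, n = 3), above every array of the other lines, whose means ran from 8.68 ± 0.23 in AH129-NC1 to 8.99 ± 0.19 in R1. Those 4 lines followed each other in steps of at most 0.20, none past the adjusted p. The ends of that run did differ past it, under 2-fold: AH129-NC1 minus R1 was -0.31 ± 0.12 (adjusted p = 0.0470). The difference between the kinds was -0.42 ± 0.22 (adjusted p = 0.257), and no pair of lines reached 2-fold. Neither Acvr2b nor another of the 8 genes passed in AH129-5 against AH129-N1 or in AH129-N1 against AH129-NC1, where 5.32% and 3.06% of genes did. A second probe set gave -0.27 ± 0.25 (adjusted p over probe sets = 0.615). By it CS1-1, at 7.80 to 8.30, overlapped every other line, among them R1 at 7.89 to 8.05. The third was near background in all 7 groups.

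Foxh1, the nuclear partner of the Smads, lay within 0.41 over the 5 line means, from 8.49 ± 0.09 in AH129-N1 to 8.90 ± 0.08 in AH129-5. The kinds differed by 0.08 ± 0.20 (adjusted p = 0.872), with means of 8.72 ± 0.19 (n = 9) and 8.63 ± 0.19 (n = 6). The small difference turned sign, to -0.03 without CS1-1, to -0.00637 without AH129-5, and to -0.000559 by the second probe set of the gene. Its remaining probe set was uneven, from 4.66 to 7.56 over the ES arrays, and gave 0.08 ± 1.03. Foxh1 and Smad7 were the most even of the 7 tested genes across the lines.

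Lefty1, a secreted inhibitor that binds Nodal and its co-receptor, separated the kinds of ES cell. Its levels were 10.80, 11.06 and 10.84 in AH129-5, 10.37, 10.18 and 10.01 in AH129-N1, and 9.98, 10.17 and 10.25 in AH129-NC1. They were 8.59, 8.76 and 8.41 in CS1-1 and 8.69, 8.45 and 9.04 in R1. The lowest ahES array, at 9.98, was thus nearly a full log2 unit above the highest diploid ES array, at 9.04. The mean was 10.41 ± 0.39 (n = 9) in ahES and 8.66 ± 0.23 (n = 6) in diploid ES cells, a difference of 1.75 ± 0.25 (adjusted p = 6.92e-05). In signal units the means were 1394 and 398. AH129-5 was above the other ahES lines, by 0.71 over AH129-N1 (adjusted p = 0.000260), while AH129-N1 and AH129-NC1 overlapped, as did R1 and CS1-1. Each ahES line passed against each diploid line, 6 of 6 pairs, from 1.41 ± 0.13 for AH129-NC1 minus R1 (2.66-fold) to 2.31 ± 0.13 for AH129-5 minus CS1-1 (4.96-fold). These pairs share arrays and are not independent. Between 8.29% (AH129-NC1 against R1) and 15.8% (AH129-NC1 against CS1-1) of genes passed in them, with 13.7% in AH129-N1 against CS1-1.

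Lefty2, a close relative of Lefty1 with the same known action, was higher in ahES cells with a different order of lines. Its levels were 11.41, 11.43 and 11.49 in AH129-5, 10.85, 10.75 and 10.78 in AH129-N1, and 11.41, 11.43 and 11.37 in AH129-NC1. They were 9.46, 8.95 and 9.08 in CS1-1 and 10.14, 10.23 and 10.06 in R1. AH129-5 and AH129-NC1 overlapped at the top, AH129-N1 followed, and each diploid line stood apart below. The mean was 11.21 ± 0.32 (n = 9) in ahES and 9.66 ± 0.56 (n = 6) in diploid ES cells, a difference of 1.56 ± 0.24 (adjusted p = 0.000138), with signal means of 2412 and 848. CS1-1 was lower than R1 by 0.98 ± 0.09 (adjusted p = 2.79e-08), just short of 2-fold. When each ahES line was set against each diploid line, 5 of 6 pairs passed, up to 2.28 ± 0.09 (4.84-fold) for AH129-5 minus CS1-1. The exception was AH129-N1 minus R1, at 0.65 ± 0.09 (adjusted p = 6.60e-06), or 1.57-fold, in a pair in which 9.54% of genes passed.

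In the model, the line was a random block, since arrays of a line are not independent. With 1 mean per line the Lefty1 difference still passed (adjusted p = 0.0181), whereas that of Lefty2 did not (adjusted p = 0.0587). An exact 2-sided permutation of the 5 line means gave p = 0.1 for Lefty1, Lefty2, Tdgf1 and Acvr2b, the smallest that 10 splits allow. It gave 0.4 for Nodal and Smad7 and 0.7 for Foxh1. Leaving out any 1 line kept the Lefty1 difference between 1.504 and 1.88 and the Lefty2 difference between 1.07, without CS1-1, and 2.05, without R1. Only the haploid kind is labelled as sorted in G0/G1, so ploidy, origin and sort cannot be told apart.

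**Figure D2:**
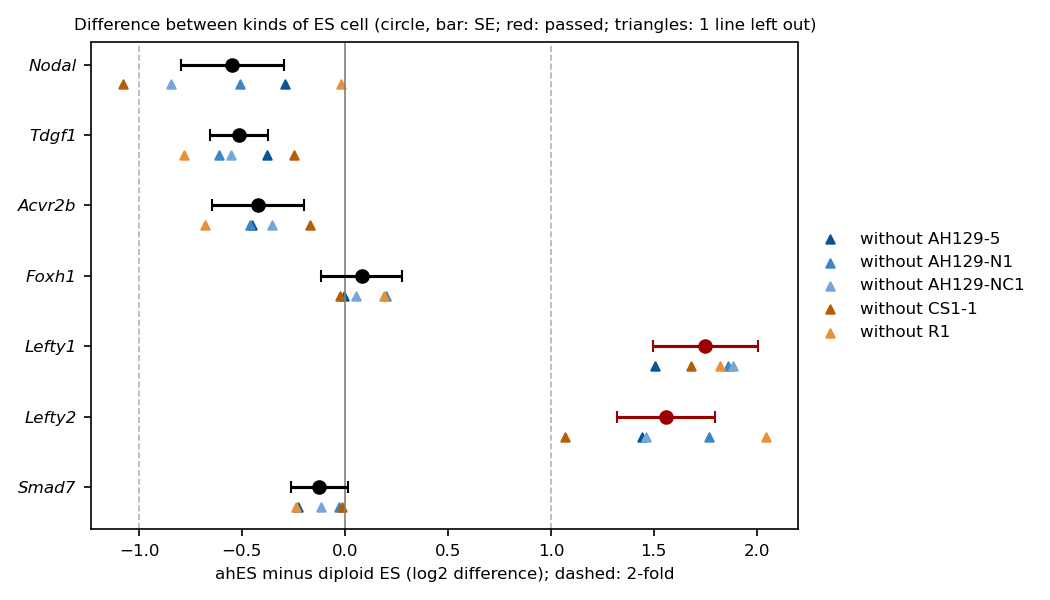
Difference between ahES and diploid ES cells (log2) for the 7 tested genes. Circles with bars are the difference ± SE, red where it passed, and triangles give the difference with 1 of the 5 lines left out. Lefty1 and Lefty2 stay above the dashed 2-fold line at 1 whichever line is left out, while Nodal moves from -1.08 without CS1-1 to -0.02 without R1.

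The line means of Lefty1 and Lefty2 spanned 2.31 and 2.28 log2 units over the 5 lines, a span smaller than which was found for 95.3% and 95.1% of the 12892 genes tested. Nodal spanned 1.59 (86.8% of genes had less), Tdgf1 1.05 (69.6%) and Acvr2b 0.81 (55.7%). The median gene spanned 0.74, and Smad7 (0.43) and Foxh1 (0.41) spanned less than that. The 7 tested genes thus ran from near the widest to the narrower part of all genes.

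**Figure D3:**
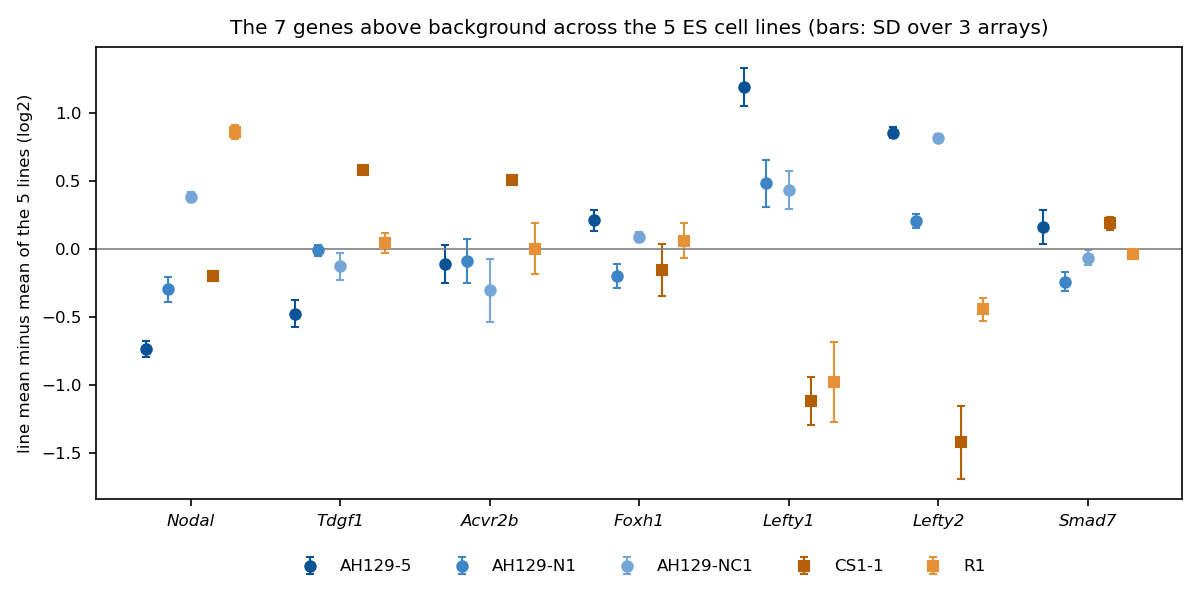
Mean of each ES line minus the mean of the 5 lines (log2), for the 7 genes above background, with bars for the SD over 3 arrays. Circles are ahES and squares diploid ES lines. For Lefty1 and Lefty2 all circles lie above 0 and all squares below, whereas for Nodal R1 is highest and AH129-5 lowest.

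Smad7, an intracellular inhibitor that blocks the activated receptor, did not follow the Leftys. Its line means lay between 10.02 ± 0.07 in AH129-N1 and 10.45 ± 0.05 in CS1-1 (n = 3 each). The kinds differed by -0.12 ± 0.14 (adjusted p = 0.677), and by -0.02 ± 0.26 with the second probe set (adjusted p over probe sets = 0.980). Cer1 gave no level to compare: the means of its probe set lay between 4.196 and 5.02 over the 7 groups, and 1 of 21 arrays, AH129-5 replicate 3 at 5.68, exceeded the 40th percentile of its array. The other Cer1 probe set was near background in all ES lines and MEF, and above it in round sperm, at 6.14, 5.58 and 5.35. Fitted over 23485 probe sets, of which 3.86% passed, 2.52% as higher and 1.34% as lower, the probe sets of the 8 genes that passed between the kinds were the only ones of Lefty1 and Lefty2.

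Outside ES cells, the 8 genes split into those at or just above background in MEF and Smad7, which was kept there. A gene enters these tests where all 3 arrays of 1 compared line or group are above the 40th percentile, so a gene seen only in ES cells had to differ, and the counts are a description. Of the 7 genes tested in ahES minus MEF, 6 were higher and none lower, in a comparison where 21.2% of 13230 genes passed as higher. In diploid ES minus MEF the same count was found, where 22.6% of 13026 passed as higher. The comparisons share the MEF arrays.

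Tdgf1 was near background in MEF, at 3.64, 3.66 and 3.48, and was at least 209-fold higher in ahES and at least 298-fold higher in diploid ES cells. Lefty2, at 4.35, 3.45 and 3.65 in MEF, was at least 54.7-fold higher in ahES and at least 18.6-fold higher in diploid ES cells. Nodal, at 3.92, 5.59 and 4.84 in MEF, was at least 36.6-fold and at least 53.5-fold higher. These folds are lower bounds, because the MEF means were near background. Each MEF array below its own 40th percentile was set to that percentile before the mean was taken. Foxh1 was at least 9.69-fold and at least 9.16-fold higher. Lefty1 was above background in MEF, at 6.41, 6.90 and 5.67, and was 16.9-fold higher in ahES (4.08 ± 0.23) and 5.04-fold higher in diploid ES cells (2.33 ± 0.24). Acvr2b, just above background in MEF at 5.72 ± 0.16, was 8.54-fold and 11.5-fold higher. Smad7 was the exception, with a MEF mean of 9.95 ± 0.15 and differences of 0.27 ± 0.11 from ahES (adjusted p = 0.0304) and 0.39 ± 0.11 from diploid ES cells (adjusted p = 0.00416), both under 2-fold.

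In round sperm a different gene was kept. Foxh1 lay at 8.61, 8.35 and 8.32 there, and differed by 0.29 ± 0.15 from ahES (adjusted p = 0.0840) and by 0.21 ± 0.16 from diploid ES cells (adjusted p = 0.237). Its 2 other probe sets were above background in round sperm as well, and they ranked round sperm and ES cells in opposite order. The second had a mean of 7.87 ± 0.31 in round sperm and 8.49 in both kinds of ES cell, and taken alone it put ahES cells 0.61 above round sperm (adjusted p = 0.000256), under 2-fold. The remaining one had 7.77 ± 0.22 in round sperm, against 6.35 ± 0.76 in ahES and 6.26 ± 1.16 in diploid ES cells. The difference from ES cells turned sign with the mean over probe sets and with quantile normalization. With the latter Foxh1 was 0.39 lower in diploid ES cells than in round sperm (adjusted p = 0.0196), again under 2-fold. Quantile normalization also moved the median of all genes in ahES minus round sperm from 0.32 to 0.09.

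The other 6 tested genes were higher in ES cells than in round sperm, where 40.8% of all genes tested passed as higher against ahES and 40.8% against diploid ES cells. Tdgf1 was at least 199.8-fold higher in ahES and at least 285-fold higher in diploid ES cells, with 4.57, 3.64 and 3.79 in round sperm. Lefty2, at 5.80, 3.55 and 3.63 in round sperm, was at least 49.7-fold and at least 16.9-fold higher, and Lefty1, at 5.88, 4.55 and 5.10, at least 27.9-fold and at least 8.29-fold. Smad7 was near background in round sperm at 3.79, 4.01 and 4.53, and at least 26.2-fold and at least 28.5-fold higher in ES cells. Acvr2b was at least 9.96-fold and at least 13.4-fold higher. Nodal kept a low level in round sperm, at 6.82, 6.09 and 6.94 by the probe set used, and was 16.6-fold (4.05 ± 0.22) and 24.3-fold (4.60 ± 0.23) higher in ES cells. Its other probe set was near background there, at 4.38 to 5.37, so the 2 probe sets differ on whether round sperm hold Nodal transcript.

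MEF and round sperm differed most in Smad7 and Foxh1. Smad7 was at least 21.7-fold higher in MEF, and Foxh1 at least 7.93-fold higher in round sperm. Nodal was at least 2.202-fold higher in round sperm. In this comparison 41.7% of genes passed as higher and 34.5% as lower in MEF, and 5 of the 8 genes were tested. Lefty1 had a fitted difference of 1.15 ± 0.28 (adjusted p = 0.000667), but it was near background in round sperm, its ranges overlapped and its bound was at least 1.65-fold. The call was lost without MEF replicate 2 (0.86), without round sperm replicate 2 (0.83) or with 4 times the offset (0.73). Acvr2b, also near background in round sperm, was at least 1.17-fold higher in MEF. Its fitted difference of 0.77 ± 0.19 did not pass, and it passed with no offset (1.06) and without round sperm replicate 3 (1.02).

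In the wider pathway 3 of 54 tested genes passed between the kinds of ES cell, or 5.56%, close to the 4.37% of all genes. They were Eomes, Hhex and Id1, all lower in ahES cells. Of the other ligands and their processing enzymes 9 were measured and 7 tested, and none passed by limma (2 at an unadjusted p under 0.05), with a median difference of 0.18. Gdf3, a ligand of ES cells that shares the co-receptor, differed by 0.15 ± 0.12 (adjusted p = 0.520), with line means from 11.48 to 11.98. Inhba, the activin subunit, differed by 0.09 ± 0.57 (adjusted p = 0.961). Of the receptors and Smads all 10 were tested and none passed (4 at an unadjusted p under 0.05), with a median of 0.47. Acvr2a, the other type II receptor, differed by 0.51 (adjusted p = 0.0601) and Acvr1b, the type I receptor, by -0.26 (adjusted p = 0.742). The signal carriers Smad2, Smad3 and Smad4 differed by 0.25, 0.19 and 0.08, with adjusted p of 0.267, 0.616 and 0.783.

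None of 17 tested inhibitors outside the 8 genes passed either (0 at an unadjusted p under 0.05), and their median was -0.07. Fst, which traps activin, differed by -0.06 (adjusted p = 0.954). Pmepa1 and Skil, which the pathway is known to induce and which then dampen it, differed by -0.18 (adjusted p = 0.715) and -0.39 (adjusted p = 0.251). Skil varied by line, with means from 10.46 ± 0.05 in AH129-NC1 to 11.75 ± 0.04 in CS1-1. Whether the Lefty difference goes with activity of the pathway was not tested. Of the nuclear partners and targets, 9 were measured and 5 tested, and 2 were lower in ahES cells. Eomes, a T-box factor of mesendoderm, fell by 1.17 ± 0.36 on the log2 scale (adjusted p = 0.0347), from means of 7.93 ± 0.11 in CS1-1 and 7.498 ± 0.23 in R1 to 6.07 to 6.82 in the ahES lines. Hhex, a homeobox factor of anterior endoderm, fell by 1.01 ± 0.21 (adjusted p = 0.00228), from 8.95 in both diploid lines to 7.65 to 8.27 in the ahES lines. The median of these 5 was -0.43. In the BMP branch, a sister pathway with its own Smads, 1 of 15 tested genes passed: Id1, a BMP target, fell by 1.05 ± 0.23 (adjusted p = 0.00414), and the median was 0.07.

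**Figure D4:**
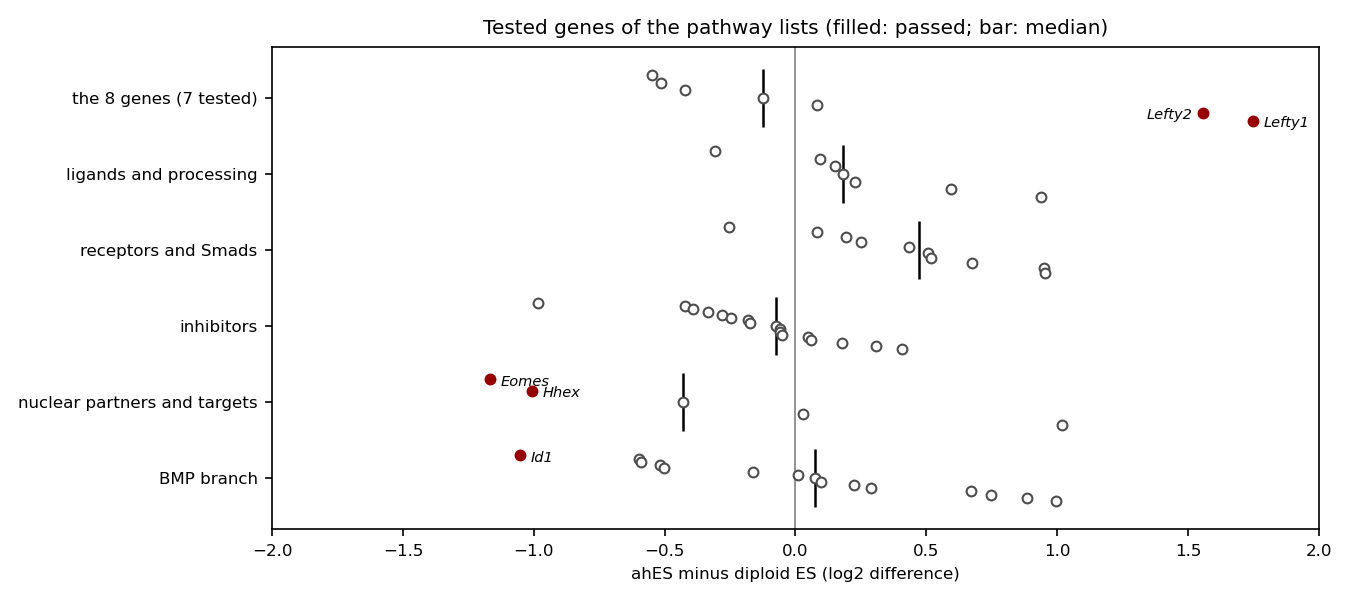
Difference between ahES and diploid ES cells (log2) for each tested gene of the 8 and of 5 pathway lists. Points are genes, filled red and named where they passed, and bars are list medians. Lefty1 and Lefty2 are the 2 filled points above 0, and Eomes, Hhex and Id1 the 3 below.

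The 2 diploid lines also differed from each other in pathway genes. Of 54 tested genes of the 5 pathway lists, 1 was higher and 8 were lower in CS1-1 than in R1. That is 16.7%, against 9.79% of all genes tested. In CS1-1 minus R1, Nodal was the member of the 8 that passed, as lower. Inhba (-2.51 ± 0.25) and Inhbb (-2.46 ± 0.15), which encode activin subunits, were lower in CS1-1. Tgfbr2 (-2.08 ± 0.12), the receptor for TGF-beta, and its ligand Tgfb2 (-1.20 ± 0.23) were lower too. Acvr1b was higher (1.47 ± 0.10). Otx2, a transcription factor of primed epiblast, was 2.75 ± 0.14 lower in CS1-1, with means of 6.70 ± 0.37 against 9.46 ± 0.13. In the BMP branch Bmp4 (-1.92 ± 0.22) and Id3 (-2.33 ± 0.11) were lower, as was Grem1, by at least 2.46-fold, being near background in CS1-1. Fibroblast markers differed between these lines as well: 7 of 9 tested were lower in CS1-1 and none higher, with a median of -2.52. Over all 12892 genes tested, 744 were lower and 518 higher. Nodal was near background in MEF, at 4.78 ± 0.83 (SD, n = 3), and so was Otx2. Inhba, Inhbb, Tgfbr2, Tgfb2, Bmp4, Id3 and Grem1 had MEF levels from 9.25 (Tgfb2) to 13.41 (Inhba), all above their levels in both lines. The part of the fibroblast markers in these differences was not tested. CS1-1 thus combined the lower Nodal level of the 2 diploid lines with lower activin subunits and higher Tdgf1 and Acvr2b. The last 2 were short of 2-fold, at 0.54 ± 0.06 and 0.51 ± 0.12, and by the second Acvr2b probe set the lines overlapped.

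Against MEF, where 21.1% of all genes passed as lower in ahES cells, ES cells held a different set of ligands. In ahES minus MEF, Gdf3 was at least 75.7-fold higher and Pcsk6, a protease that cuts ligand precursors, was higher by 3.01 ± 0.12, while 6 of the 9 tested ligands and enzymes were lower, among them Tgfb3 (at least 48.3-fold) and Inhba (-5.88 ± 0.32). Of 10 receptors and Smads, 1 was higher, the co-receptor Cfc1 (1.86 ± 0.22), and 2 were lower, Tgfbr2 (-2.59 ± 0.13) and Tgfbr3 (-2.48 ± 0.09). Of 17 inhibitors 2 were higher and 8 lower, with Pmepa1 at -3.76 ± 0.13 and Dact2 at least 11.6-fold higher. Of 5 tested targets 3 were higher, Otx2 (at least 12.6-fold), Hhex (at least 5.48-fold) and Gsc (at least 2.60-fold). In the BMP branch 1 of 14 was higher and 8 lower. Over all genes tested in this comparison the median difference was 0.08. Among ligands, then, Nodal and Gdf3 marked the ES arrays and Inhba and Tgfb3 the fibroblasts.

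In ahES minus round sperm, 40.8% of all genes passed as higher and 32.3% as lower, and the median difference was 0.32. Of 10 receptors and Smads 7 were higher and none lower, with a median of 1.99, among them Smad4 (4.16 ± 0.09), Smad2 (2.13 ± 0.07) and Tgfbr2 (at least 14.02-fold). Of 8 tested ligands and enzymes 6 were higher and 1 lower, with a median of 2.39. Of 17 inhibitors 6 were higher and 3 lower, with a median of 0.34. The Nodal antagonist Dand5, a relative of Cer1, was at least 36.1-fold lower in ahES cells than in round sperm. Of 6 tested targets 3 were higher and 2 lower, the lower ones being Sox17 (-4.13 ± 0.25) and Lhx1 (at least 3.32-fold). In the BMP branch 11 of 15 were higher and 2 lower.

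Genes whose levels followed those of the 8 over the 15 ES arrays are named with Pearson's r alone. The 15 arrays come from 5 lines, so each r mostly compares 5 line means. The likest to Nodal were Sdc4 (r = 0.990), Fat1 (0.981) and Camsap3 (0.972), a syndecan, a protocadherin and a microtubule protein. The likest to Lefty1 were Atp2b1 (0.978), Dpysl4 (0.974) and Ogt (0.974). The likest to Lefty2 were Cdh2 (0.989), Slc35g1 (0.989) and Zp3 (0.984). Cdh2 encodes N-cadherin and Zp3 a protein of the egg coat. The likest to Tdgf1 were Pgm3 (0.981), Wfdc2 (0.975) and Myo10 (0.974), and to Acvr2b Wdr90 (0.940), Dhx57 (0.928) and Bcl2l12 (0.924). Foxh1 and Smad7, which varied least, had r up to 0.889 (Nxpe4) and 0.943 (Fam76a). None of the 8 genes was among the 3 likest of another.

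Markers of other cell states moved with the Lefty difference in part. Of 5 tested markers of primed epiblast, Dnmt3b (1.26 ± 0.15), Sox3 (1.44 ± 0.38) and Zic2 (1.40 ± 0.26) were higher in ahES cells. Otx2 (1.02 ± 0.53, adjusted p = 0.258) and Pou3f1 (-0.54 ± 0.50, adjusted p = 0.587) did not pass by limma. Otx2 was at 6.70 in CS1-1, but at 9.46 in R1, above AH129-N1 (9.05) and AH129-NC1 (8.56) and below AH129-5 (9.68). The summed signal of the 6 markers was 4824 to 6017 in ahES and 2119 to 2774 in diploid ES arrays. Dnmt3b, the highest of the tested markers at 11.98 in ahES and 10.72 in diploid ES cells, weighs most in that sum. Fgf5, a defining marker of primed epiblast, was near background in all 5 ES lines. No pluripotency marker passed of 6 (1 at an unadjusted p under 0.05). Of 9 tested fibroblast markers Dcn (2.08 ± 0.61) and Lum (1.47 ± 0.44) were higher in ahES cells. By line, 7 of the 9 were higher in each ahES line than in CS1-1, with medians of 2.76, 2.61 and 2.69. Against R1 none of the 9 passed by limma in any ahES line, and 0, 7 and 8 had an unadjusted p under 0.05 in AH129-5, AH129-N1 and AH129-NC1. Lefty1 passed against both diploid lines in all ahES lines, and Lefty2 did so except in AH129-N1 against R1 (0.65, under 2-fold). The summed signal of the 9 was 26382 to 37814 in ahES arrays, 18958 to 19940 in CS1-1, 35687 to 36777 in R1 and 121695 to 126819 in MEF. MEF held less Lefty1 and Lefty2 than every ES array. No marker of primitive and visceral endoderm passed of 6 tested by limma (1 at an unadjusted p under 0.05), with a median of 0.62. Sox7, Afp and Ttr were near background in all ES lines. Against CS1-1, 4, 2 and 2 of the 6 were higher in AH129-5, AH129-N1 and AH129-NC1, where 15.5%, 13.7% and 15.8% of genes passed. Against R1, 2, 1 and 1 were higher, and 1 was lower in AH129-N1 (11%, 9.54% and 8.29% of genes passed). The summed signal of the 11 markers was 794 to 966 in AH129-5, 410 to 590 in AH129-N1 and 550 to 677 in AH129-NC1. It was 358 to 381 in CS1-1 and 358 to 496 in R1. Of 4 measured mesendoderm markers, Mixl1 was near background in all ES lines but R1, and 3 were tested. Eomes was lower in ahES cells and Gsc differed by 0.03 ± 0.37 (adjusted p = 0.983). Evx1, near background in diploid ES cells, went the other way, by 1.62 ± 0.75 (adjusted p = 0.182). The summed signal was 207 to 334 in ahES and 316 to 405 in diploid ES arrays. The part of the primed epiblast, fibroblast, endoderm and mesendoderm markers in the Lefty difference was not tested. In round sperm 4 of 6 Sertoli cell markers exceeded the 40th percentile on all 3 arrays, and the defining markers Wt1 and Amh were near background. All 4 spermatocyte markers exceeded it there, with a summed signal of 9870 to 11186, against 106503 to 166356 for the 7 spermatid markers. Their part in the levels of Foxh1 and Nodal in round sperm was not tested.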

How the data were processed

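The authors deposited 1 log2 value per probe set and array for 45101 probe sets, made with MAS5 per the submitters' processing notes. The log base was not given in the sources used here and was read from the values: returned from base 2, the 2% trimmed mean was 500 on all 21 arrays. Values ran from 0 to 15.7. Detection calls were not used, and precision is limited by the 3 arrays per group. Probe sets were named from the platform annotation: 34945 carried 1 gene symbol, 932 several and 9160 none, and 64 were controls. Platform symbols of the 8 genes all matched RefSeq (GRCm38.p6).

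Signals were recovered, 9.70 units were added and log2 was taken. Tested genes had all 3 arrays of some compared line or group above the 40th percentile. Differences were fitted with limma 3.58.1 (statmod 1.5.0, R 4.3.3; trend, robust), on 15 ES arrays with the line as a random block (correlation 0.687), on the same arrays with a mean per line for pairs, and on 21 arrays for MEF and round sperm. All tests were 2-sided. The workflow was tested on simulated data.

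The 8 genes, the lists and the settings were chosen with earlier results of these data known, so no count here is independent support of them. Named were the 8 genes, a set of key pathway genes, up to 4 genes of a list with the smallest adjusted p or any set of 5 or fewer that passed, and the 3 likest genes. Alternatives changed probe set choice, offset, filter, normalization, model, lines and replicates. Replicate numbers did not pair the arrays: deviations of arrays sharing a number correlated at -0.06 to 0.05.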

Additional observations from a re-analysis of the deposited data

Results flagged for a closer look

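The difference between ahES cells and a diploid line was not the same for both diploid lines in Nodal. Nodal was 1.06 lower in CS1-1 than in R1 on the log2 scale (CS1-1 minus R1, -1.06 ± 0.06, adjusted p = 1.40e-11 by limma), so ahES minus R1 and ahES minus CS1-1 differ by that amount. Mean levels were 10.69 ± 0.02 in CS1-1, 11.75 ± 0.05 in R1 (SD, n = 3 each) and 10.67 ± 0.49 in ahES arrays (n = 9). No ES array stood far from the others of its kind in the 32 group ends checked. The groups were the 9 ahES and the 6 diploid ES arrays, with lines pooled. An array far from the others of its own line alone could be missed, and MEF and round sperm were not checked.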

How the results depend on the processing

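Each choice was changed in turn, and the following results changed. For ahES minus diploid ES, 564 genes passed, against 282 with 1 mean per line, 967 with no random block of lines and 1106 without line R1. Over the 10 pairs of ES lines, 12535 calls fell to 8217 with 4 times the offset. Foxh1 turned sign in ahES minus diploid ES (-0.000559 without probe sets of suffix _x_at or _s_at, -0.00637 without line AH129-5, -0.0259 without line CS1-1). It did so in ahES minus round sperm (-0.17 with the mean over probe sets, -0.27 with quantile normalization) and in diploid ES minus round sperm (-0.23 and -0.39). The cause was not tested. The calls of Lefty2 (adjusted p = 0.0587 with 1 mean per line) and of Nodal, Lefty1 and Acvr2b that changed stand beside their values. Leaving out 1 replicate gave 539 to 575 genes, 1.68 to 1.83 for Lefty1 and 1.49 to 1.61 for Lefty2. The replicate block, tried although the numbers do not pair the arrays, gave 524 genes and changed no call of the 8 genes. Low signal limits Cer1 and all bounds given against MEF or round sperm.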
